A study of Mus musculus with 6 samples.

Results

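The expression of 9 mouse genes was followed in C2C12 cells, an immortalised line of mouse myoblasts. They were taken by family: Ehmt1, Ehmt2, Suv39h1, Suv39h2 and Setdb1 encode methyltransferases of lysine 9 of histone H3 (H3K9), Cbx1, Cbx3 and Cbx5 encode the HP1 proteins, and Pias1 encodes a partner of Msx1. All 9 of 9 were found among the 24809 genes of the deposited table. The groups were control cells, whose table headings name a vector, and cells with the label Msx1 overexpression (n = 3 libraries each). Both are C2C12 myoblasts, and neither carries any other labelled allele, agent or time. The promoter that drives Msx1, the number of clones, the state of growth at harvest and whether replicates came from separate cultures are not stated in the labels. The p-values therefore reflect the spread among the 6 libraries, which may be technical.

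Methylated H3K9 marks repressed chromatin. Ehmt2 (G9a) and Ehmt1 (GLP) work as a pair that mono- and dimethylates H3K9 in euchromatin, Suv39h1 and Suv39h2 trimethylate it in pericentric heterochromatin, and Setdb1 trimethylates it at retroelements and selected genes together with Trim28. HP1 proteins read the mark through a chromodomain. Msx1 is a homeodomain repressor that holds myoblasts undifferentiated and has been described as binding both G9a and the SUMO ligase Pias1. G9a and Suv39h1 are also known as brakes on the myogenic activity of Myod1.

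Values are FPKM (fragment counts scaled to transcript length and library size) summed over the RefSeq transcripts of a gene. Changes are differences of log2(FPKM + 1), Msx1 minus control, which understate the change of low genes, and p-values are adjusted over all 12371 tested genes (limma, Benjamini-Hochberg, called at an adjusted p under 0.05). Msx1 itself stood at 7.99, 7.13 and 7.54 FPKM in control replicates 1, 2 and 3 and reached 1004, 944 and 912 FPKM with Msx1 (exact two-sided permutation p = 0.1, the smallest possible with 3 against 3). Total FPKM per library ranged from 390439 to 441835. All 8 myoblast markers reached the minimum for testing, a mean of 0.5 FPKM over the 6 libraries. Of 10 markers of immune, endothelial, epithelial, fat and glial cells none reached it, and 4 were listed at 0 in every library. The sum of the 10 was 0.413 to 0.615 FPKM in control and 1.496 to 2.22 FPKM in Msx1 libraries. Of the myoblast markers 2 rose, 3 fell and 3 were not called, where 22.0% of all tested genes rose and 32.4% fell. With a minimum mean of 2 FPKM only 7 of the myoblast markers were tested, of which 1 rose and 3 fell. Myf5, a myogenic determination factor, fell from 9.01 ± 0.396 to 1.64 ± 0.0968 FPKM (log2 change -1.92, limma adjusted p = 2.77e-07; SD, n = 3 each). Cav3, the muscle caveolin, rose from 0.245 ± 0.112 to 0.860 ± 0.154 FPKM (0.58, limma adjusted p = 0.00176). It reached the minimum only through the Msx1 libraries, since control replicates 1, 2 and 3 stood at 0.228, 0.365 and 0.142 FPKM. Des, the muscle intermediate filament gene, fell from 140.1 ± 0.668 to 116 ± 4.89 FPKM (-0.27, limma adjusted p = 0.00278). After median-of-ratios scaling, and with totals made equal without Msx1, 4 of these markers were higher and 2 lower.

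Among the 9 genes, Suv39h1, Suv39h2 and Setdb1, which encode enzymes of H3K9 trimethylation, fell with Msx1, to between 0.575 and 0.759 of the control mean, as 32.4% of all tested genes fell. Setdb2, a relative of Setdb1 named here after its values were seen, was not called (log2 change -0.0027, 95% confidence interval -0.24 to 0.23, limma adjusted p = 0.984). Suv39h1 and Setdb1 were called in 18 of 18 refits with another setting or with 1 library left out, and Suv39h2 in 16 of 17. Beside them, 18 of 20 proliferation markers fell, with a summed level of 635 to 760 FPKM in control and 313 to 333 FPKM in Msx1 libraries, and their part in the result was not tested. The promoters of these 3 genes are printed here because their calls were lost least often among the 9 genes. Each run is the 250 bases before an annotated start (RefSeq, GRCm38.p6), 5′ to 3′ on the minus strand, on which all 3 genes lie. For Suv39h1 RefSeq gives another window, chrX:8074362-8074611, with 67.2% G or C and none of the motifs searched, and the one printed is the outer of the pair. Capitals mark CCAAT, the box bound by NF-Y, read on either strand.
Suv39h1, chrX:8074761-8075010: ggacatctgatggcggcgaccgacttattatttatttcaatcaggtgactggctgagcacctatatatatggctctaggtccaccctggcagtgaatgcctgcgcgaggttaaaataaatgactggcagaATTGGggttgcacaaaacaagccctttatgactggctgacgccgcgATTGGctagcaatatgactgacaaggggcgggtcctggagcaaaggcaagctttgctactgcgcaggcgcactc
Suv39h2, chr2:3474987-3475236: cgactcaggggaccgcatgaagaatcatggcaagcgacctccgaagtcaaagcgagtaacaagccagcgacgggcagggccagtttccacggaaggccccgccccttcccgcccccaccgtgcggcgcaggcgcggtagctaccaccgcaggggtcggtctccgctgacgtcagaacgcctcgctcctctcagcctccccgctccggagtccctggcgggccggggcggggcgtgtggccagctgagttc
Setdb1, chr3:95357203-95357452: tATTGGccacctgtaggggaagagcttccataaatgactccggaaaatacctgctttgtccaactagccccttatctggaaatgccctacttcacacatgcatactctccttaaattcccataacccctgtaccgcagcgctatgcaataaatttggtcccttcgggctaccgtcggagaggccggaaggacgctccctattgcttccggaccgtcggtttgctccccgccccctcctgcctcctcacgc

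In the 13 promoter windows of the 9 genes, 6 motifs were searched on both strands, and no match in the printed windows overlaps another. CCAAT was found in 3 of the 13, against 33.8% of all 32851 windows of that length in RefSeq. In the printed windows it begins 120 and 74 bases before the outer Suv39h1 start and 249 bases before the Setdb1 start, and it is not among the letters of the Suv39h2 window. The E2F motif TTTGGCGC occurred in 1 window, at Cbx3, against 0.417% of all windows. The E2F motif TTTCCCGC (0.895% of all windows), the cell cycle motifs TTTGAA (16.0%) and TTCGAA (1.34%) and the homeodomain motif TAATTG (7.17%) were found in 0 of the 13. These 3 printed windows differ in base composition, with 51.6%, 69.6% and 54.4% G or C at Suv39h1, Suv39h2 and Setdb1, against a median of 52.4% over all windows.

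Of the 9 genes 1 was called higher and 5 lower, against 22.0% and 32.4% of all tested genes, and 54.4% of all tested genes were called in either direction. The count of 6 called genes is therefore near the background. Groups did not overlap for 6 of the 9, against 62.3% of all tested genes. Their median change was -0.18, with -0.07 over all tested genes. The members' median was -0.11 when scaled by the median of ratios, -0.07 at equal totals excluding Msx1 and -0.02 with correction for length and GC, where that over all tested genes was -0.001, 0.03 and -0.03. Over all genes, 40.4% of the calls were higher with FPKM as deposited, 50.9% when libraries were scaled by the median of ratios and 55.5% when totals excluding Msx1 were made equal. Under both scalings 2 of the 9 genes were called higher and 3 lower. Also 3 were lower without Msx1 replicate 1 or Msx1 replicate 3, and 0 were higher without any 1 library other than control replicate 1.

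**Figure D1:**
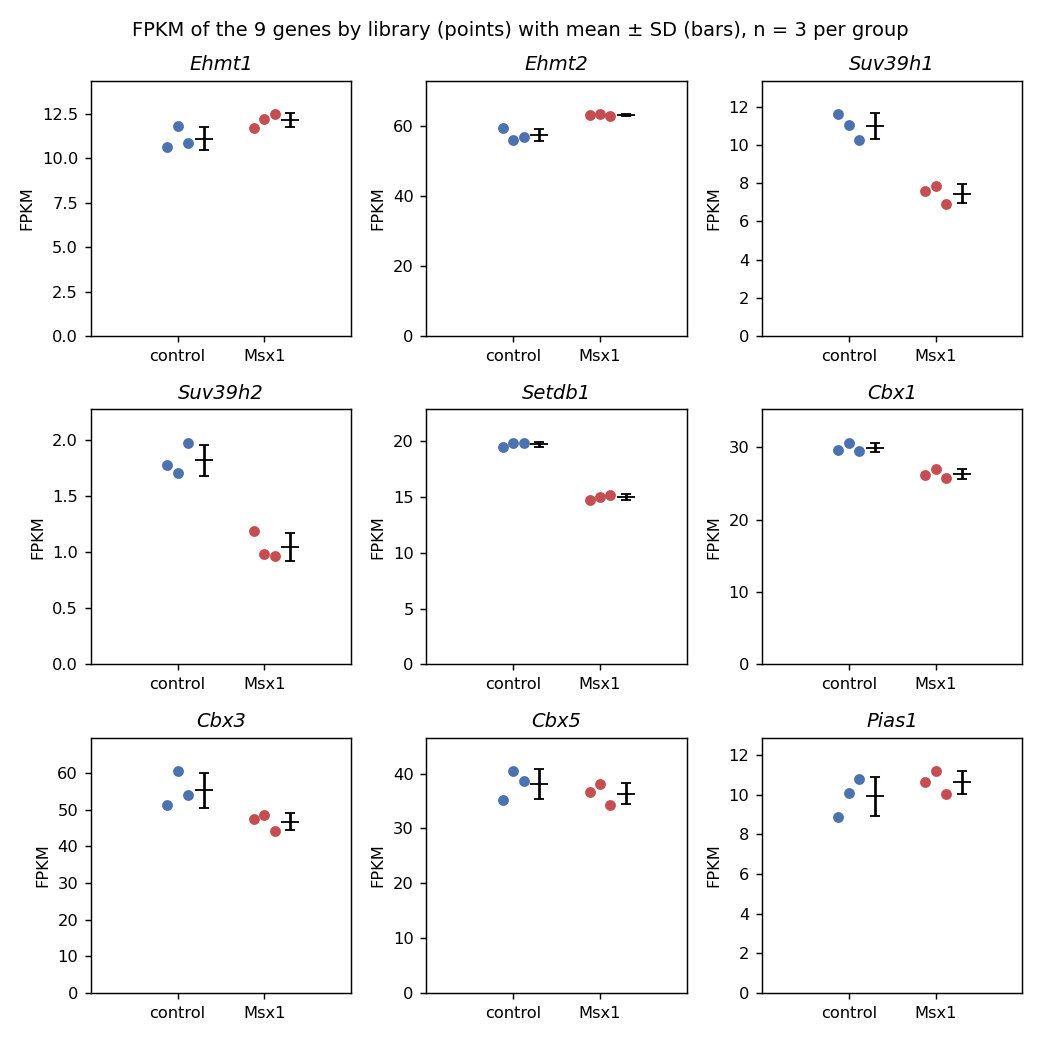
FPKM of each of the 9 genes in the 6 libraries (points) with mean ± SD (bars, n = 3 per group), on axes that start at 0. The 3 Msx1 libraries lie below all control libraries for Suv39h1, Suv39h2, Setdb1, Cbx1 and Cbx3 and above them for Ehmt2.

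Suv39h1 (chromosome X, 8061171 to 8074760, GRCm38.p6), the first described H3K9 methyltransferase of mammals, read 11.6, 11.1 and 10.3 FPKM in control replicates 1, 2 and 3 and 7.60, 7.87 and 6.91 FPKM with Msx1. Each Msx1 library was thus below each control library, and the spread within a group was small beside the gap. The means were 11.0 ± 0.673 and 7.46 ± 0.497 FPKM (SD, n = 3 each), 0.679 of the control mean (log2 change -0.50, SE 0.07, limma adjusted p = 0.000574). Over 18 refits the log2 change lay between -0.59 and -0.40 and the adjusted p between 9.14e-05 and 0.0170.

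Suv39h2 (chromosome 2, 3455815 to 3474986) encodes the second enzyme of this pair, known best from testis and early embryos, and was the lowest of the 9 genes. Its control libraries stood at 1.78, 1.70 and 1.97 FPKM and its Msx1 libraries at 1.18, 0.980 and 0.967 FPKM. No value was shared between the groups, with means of 1.82 ± 0.14 and 1.04 ± 0.122 FPKM (SD, n = 3 each; log2 change -0.46, SE 0.08, limma adjusted p = 0.00162). The call was lost when only its most abundant transcript was used (-0.38, limma adjusted p = 0.109), the highest adjusted p of its 17 refits, of which the lowest was 8.32e-05. Its log2 change was -0.23 (adjusted p = 0.0447) with correction for length and GC and -0.75 (adjusted p = 0.00206) with a pseudocount of 0.1 FPKM. That transcript, NR_027509, carries a non-coding accession. On the opposite strand Dclre1c overlaps 18397 bases of the Suv39h2 locus, and no source used here says that reads were assigned by strand. Dclre1c was at 2.57 ± 0.63 and 2.19 ± 0.443 FPKM and was not called (adjusted p = 0.410).

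Setdb1 (chromosome 3, 95323525 to 95357202), the enzyme that acts with Trim28 on retroelements, was at 19.5, 19.9 and 19.8 FPKM in control and at 14.7, 15.0 and 15.2 FPKM in Msx1 libraries. Replicates of this gene differed by less than 1 FPKM within each group, and the groups lay well apart. Means were 19.7 ± 0.208 and 15.0 ± 0.268 FPKM (SD, n = 3 each), 0.759 of control (log2 change -0.38, SE 0.05, limma adjusted p = 0.00032). The range over 18 refits was -0.41 to -0.27, with all 18 called. Cers2, which overlaps the 3′ end of Setdb1 by 75 bases on the other strand, was called higher, with 86.6 ± 3.69 FPKM in control and 107 ± 2.07 FPKM in Msx1 libraries (0.30 on the log2 scale, limma adjusted p = 0.00178).

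Ehmt2 (chromosome 17, 34898463 to 34914073), encoding G9a, read 59.5, 56.0 and 56.9 FPKM in control and 63.2, 63.4 and 62.9 FPKM in Msx1 libraries. The Msx1 libraries were nearly identical and all above control, by a small margin. With means of 57.5 ± 1.83 and 63.1 ± 0.28 FPKM (SD, n = 3 each; 1.10-fold) the log2 change was 0.13 (SE 0.05, limma adjusted p = 0.0412). Its adjusted p was the largest of the 6 called genes. The call was lost without each library except control replicate 1 (log2 change 0.12 to 0.14, adjusted p 0.0897 to 0.126) and without an intensity trend, and the sign turned after the length and GC correction (-0.05) and with the most abundant transcript alone (-0.002).

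Ehmt1 (chromosome 2, 24790769 to 24919643), encoding the partner GLP, stood at 10.6, 11.8 and 10.8 FPKM in control and at 11.7, 12.2 and 12.5 FPKM in Msx1 libraries. Control replicate 2 reached into the Msx1 range. The means of 11.1 ± 0.643 and 12.2 ± 0.389 FPKM (SD, n = 3 each) gave a log2 change of 0.12 that did not pass (95% confidence interval -0.02 to 0.26, limma adjusted p = 0.130). It passed in 3 of 18 refits, namely after scaling by median of ratios (0.19), at equal totals excluding Msx1 (0.22) and with sample weights (0.14). Those weights were 7.18 for control replicate 3 and 0.239 and 0.439 for control replicates 1 and 2. The sign turned, without a call, with correction for length and GC (-0.02) and with the most abundant transcript alone (-0.07).

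Per length, Ehmt2 was the most abundant of the 5 methyltransferase genes, with 56.8% ± 1.02 of their summed FPKM in control and 63.9% ± 0.249 in Msx1 libraries (SD, n = 3 each). The Setdb1 share was 19.5% ± 0.525 in control and 15.2% ± 0.277 in Msx1 libraries, and the Suv39h1 share 10.9% ± 0.504 and 7.55% ± 0.472. Ehmt1 held 11.0% ± 0.738 and 12.3% ± 0.382, and Suv39h2 1.80% ± 0.155 and 1.06% ± 0.128. The sum of the 5 genes was 101 ± 1.71 FPKM in control and 98.8 ± 0.633 FPKM in Msx1 libraries. Shares within a library do not depend on its scaling, and the libraries of a group were alike in all 5 shares.

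**Figure D2:**
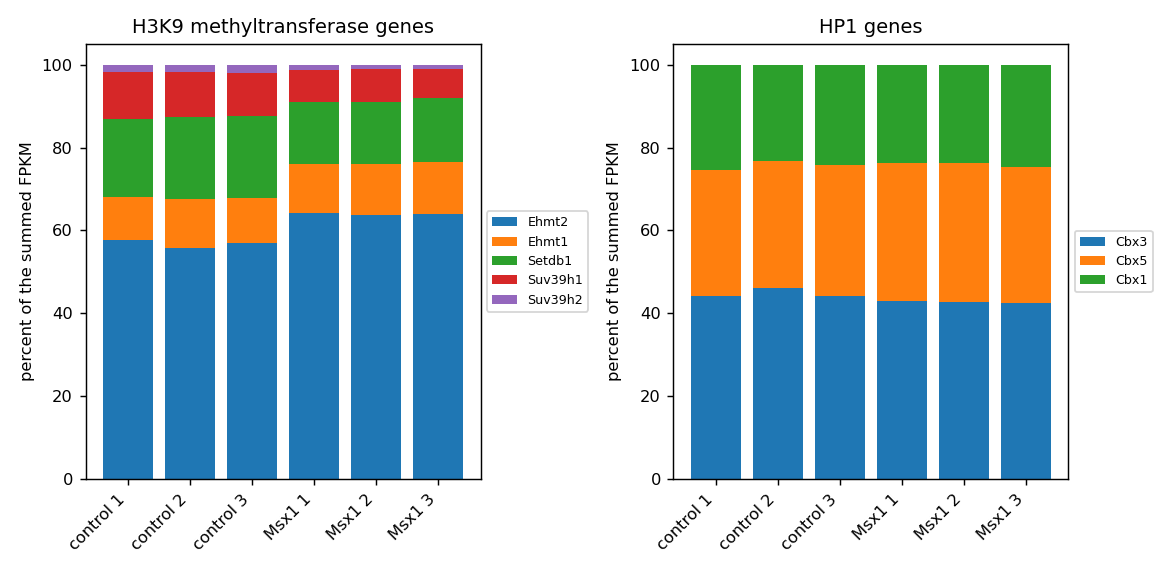
Share of each gene in the summed FPKM of the 5 H3K9 methyltransferase genes (left) and of the 3 HP1 genes (right), as stacked percentages for each of the 6 libraries. The Ehmt2 share is 55.7% to 57.8% in the control and 63.7% to 64.2% in the Msx1 libraries, and Cbx5 is 30.3% to 31.6% in control and 32.9% to 33.5% with Msx1.

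Cbx1 (chromosome 11, 96788680 to 96808982) encodes HP1 beta and has 1 transcript in the table. Control libraries gave 29.6, 30.6 and 29.5 FPKM and Msx1 libraries 26.2, 27.0 and 25.7 FPKM. The highest Msx1 library was below the lowest control library, with means of 29.9 ± 0.606 and 26.3 ± 0.657 FPKM (SD, n = 3 each; log2 change -0.18, SE 0.05, limma adjusted p = 0.0132). That call was lost after scaling by median of ratios (-0.11), at equal totals excluding Msx1 (-0.07) and without Msx1 replicate 1 or 3 (adjusted p = 0.0519 and 0.0524), and the sign turned after the length and GC correction (0.05). Gm11517, which overlaps the locus by 2825 bases, was at 0.604 ± 0.334 and 0.713 ± 0.185 FPKM.

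Cbx3 (chromosome 6, 51470154 to 51483704), encoding HP1 gamma, which also sits on active gene bodies, was at 51.4, 60.5 and 54.0 FPKM in control and at 47.4, 48.6 and 44.1 FPKM in Msx1 libraries. Control replicate 2 was the highest, and the groups did not overlap. The means were 55.3 ± 4.71 and 46.7 ± 2.33 FPKM (SD, n = 3 each; log2 change -0.24, SE 0.07, limma adjusted p = 0.0239). Without control replicate 2 the log2 change was -0.17 (adjusted p = 0.0517), and without control replicate 3, Msx1 replicate 1 or Msx1 replicate 3 the adjusted p was 0.0509, 0.0571 and 0.0846. All 3 scalings lost the call as well (-0.19 to -0.12), and the length and GC correction turned the sign (0.06). RefSeq names 6 processed pseudogenes after Cbx3, which can share its reads.

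Cbx5 (chromosome 15, 103191546 to 103239904), encoding HP1 alpha, the form most tied to heterochromatin, read 35.2, 40.45 and 38.7 FPKM in control and 36.7, 38.1 and 34.3 FPKM in Msx1 libraries. The groups overlapped, with means of 38.1 ± 2.69 and 36.4 ± 1.92 FPKM (SD, n = 3 each). Its log2 change of -0.06 did not pass (95% confidence interval -0.22 to 0.09, limma adjusted p = 0.445). With the most abundant transcript alone it was called, at -0.33 (adjusted p = 0.0366). The sign turned, without a call, when scaled by the median of ratios (0.008) and at equal totals excluding Msx1 (0.05). It was -0.12 without control replicate 1, -0.02 without control replicate 2 and -0.02 without Msx1 replicate 3, none of them called.

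Within the HP1 family, the log2 ratio of Cbx3 to Cbx5 went from 0.54 ± 0.051 in control to 0.36 ± 0.011 in Msx1 libraries (SD, n = 3 each), a difference of -0.17 with no overlap, and it was 0.10 with the most abundant transcripts alone. The log2 ratio of Cbx1 to Cbx5 differed by -0.12, also without overlap, and by 0.15 with the most abundant transcripts. Both reached p = 0.1 in the exact two-sided permutation test, the smallest that 3 against 3 libraries allow, and adjusted p = 0.25 over 5 paralog ratios. For Cbx1 to Cbx3 (0.05, exact p = 0.4), Suv39h1 to Suv39h2 (0.24, exact p = 0.3) and Ehmt1 to Ehmt2 (-0.005, exact p = 1.0) the groups overlapped. No ratio passed after adjustment, in a design that cannot reach 0.05. The ratios were not refitted after the length and GC correction. There the log2 change of the single genes was 0.05 for Cbx1, 0.06 for Cbx3 and -0.003 for Cbx5.

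Pias1 (chromosome 9, 62878366 to 62980879), a SUMO E3 ligase described as placing Msx1 at the nuclear periphery, stood at 8.88, 10.1 and 10.8 FPKM in control and at 10.7, 11.2 and 10.1 FPKM in Msx1 libraries. Control replicate 1 was the lowest library and the other 5 were mixed. Means of 9.92 ± 0.972 and 10.6 ± 0.569 FPKM (SD, n = 3 each) differed by 0.09 on the log2 scale (95% confidence interval -0.09 to 0.28, limma adjusted p = 0.348). It was called only after the length and GC correction (0.21, adjusted p = 0.0122) among 18 refits. The change was 0.02 without control replicate 1, 0.15 without control replicate 3 and 0.06 without Msx1 replicate 2, none of them called. Weighting the libraries, with most of the control weight on control replicate 3, gave 0.0009.

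**Figure D3:**
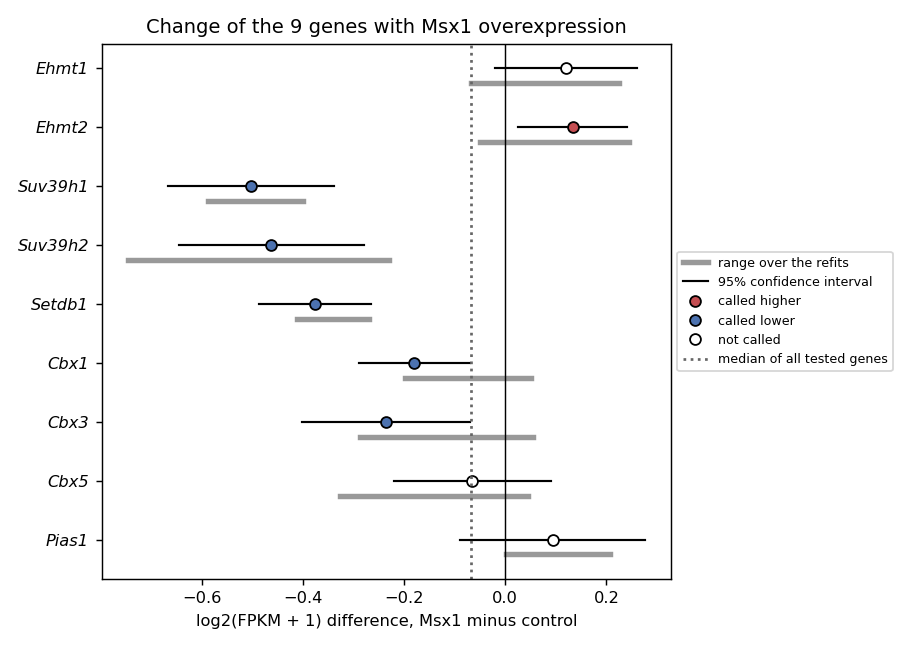
Change of each of the 9 genes on the log2(FPKM + 1) scale, Msx1 minus control, with the 95% confidence interval of limma (thin line) and the lowest and highest value over the refits (grey bar, 18 refits, 17 for Suv39h2). Suv39h1, Suv39h2 and Setdb1 stay below 0 throughout, while the grey bars of Ehmt1, Ehmt2, Cbx1, Cbx3 and Cbx5 cross 0 and the dotted line marks the median of all tested genes at -0.07.

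The order of levels per length in control was Ehmt2, Cbx3, Cbx5, Cbx1, Setdb1, Ehmt1, Suv39h1, Pias1 and Suv39h2. Ehmt2 overlapped with Cbx3 in control, as did Ehmt1 with Suv39h1 and Suv39h1 with Pias1, and all other neighbours in the order were apart. In Msx1 libraries no neighbours overlapped, and Pias1 at 10.6 FPKM stood above Suv39h1 at 7.46 FPKM. The other 7 genes kept their place.

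Among the 23 annotated transcripts of the 9 genes, 22 were tested, and 1 was called higher and 4 lower. Of all 17764 transcripts tested, 13.6% were higher and 18.6% lower, 32.3% in all. StringTie, named in the processing notes, estimates how reads divide among overlapping transcripts. NM_011514 of Suv39h1 fell from 6.74 ± 1.06 to 4.16 ± 0.757 FPKM (log2 change -0.59, limma adjusted p = 0.0330), and NM_018877 of Setdb1 from 14.8 ± 1.43 to 11.3 ± 0.99 FPKM (-0.36, adjusted p = 0.0319; SD, n = 3 each). NM_007624 of Cbx3 fell from 51.7 ± 2.14 to 43.8 ± 1.42 FPKM (-0.23, adjusted p = 0.0153), and the single Cbx1 transcript was the other called lower.

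For Ehmt2 the most abundant transcript, NM_145830, was level at 32.4 ± 3.21 and 32.4 ± 5.21 FPKM, while NM_001286575 rose from 7.47 ± 0.237 to 10.1 ± 1.53 FPKM (SD, n = 3 each; log2 change 0.38, limma adjusted p = 0.0465). Another transcript, NM_147151, read 5.26, 5.72 and 5.73 FPKM in control and 9.71, 6.60 and 6.94 FPKM in Msx1 libraries without passing (adjusted p = 0.0862). Both of these less abundant forms were higher in each Msx1 library than in each control library, and NM_145830 overlapped between the groups.

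The transcripts of Cbx5 were divided unevenly. NM_001076789 was at 28.4, 28.5 and 23.0 FPKM in control and at 22.6, 19.4 and 20.9 FPKM in Msx1 libraries (log2 change -0.33, adjusted p = 0.0585 over all transcripts). NM_001110216 was listed at 0.238 FPKM in control replicate 1 and between 7.04 and 13.4 FPKM in the other 5 libraries, while NM_007626 was at 0.516 FPKM in control replicate 2 and between 3.85 and 5.48 FPKM elsewhere. The Cbx5 sum was 35.2 FPKM in control replicate 1, the lowest of the control libraries, and 40.45 FPKM in control replicate 2, the highest. Without control replicate 1 the log2 change of the sum was -0.12, beside -0.06 with all libraries. Suv39h2 showed the same kind of scatter, since its coding transcript NM_022724 made up from 16.7% to 67.0% of the gene in the 3 Msx1 libraries and 28.0% to 47.7% in control. The rest was the non-coding transcript NR_027509.

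**Figure D4:**
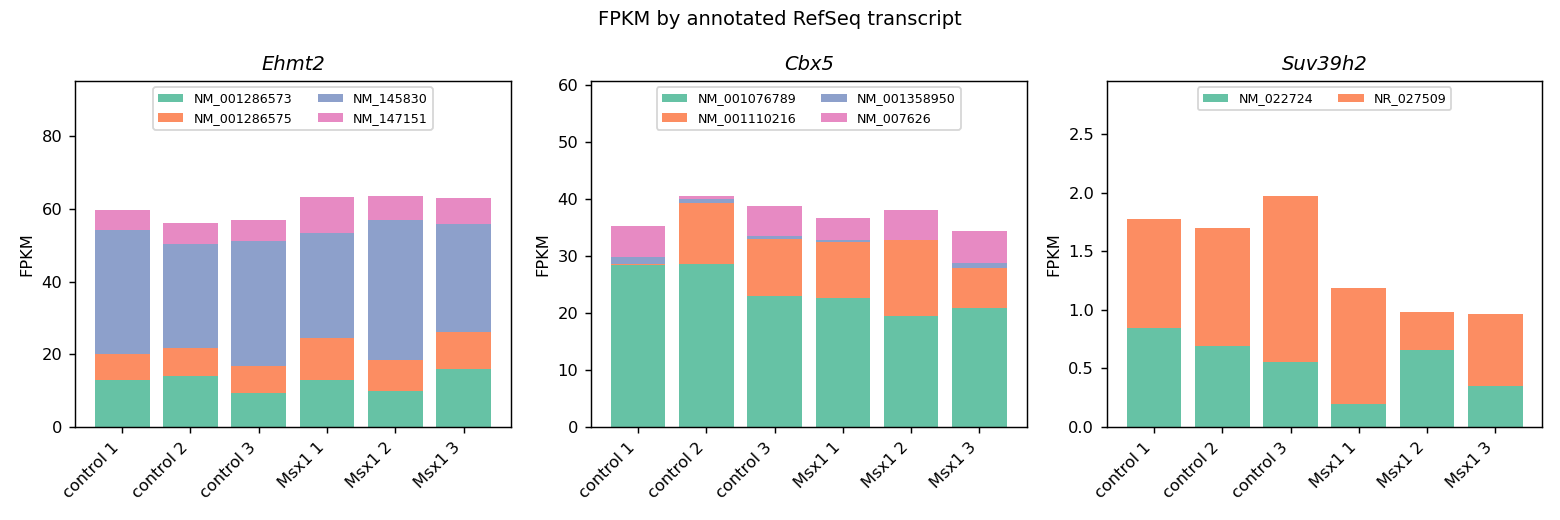
FPKM of each annotated RefSeq transcript of Ehmt2, Cbx5 and Suv39h2, stacked for each of the 6 libraries. The stacks of a group end at similar heights while the parts differ, as for NM_001110216 of Cbx5, which is at 0.238 FPKM in control replicate 1 and at 10.7 and 10.1 FPKM in the other 2 control libraries.

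Cbx3 and Cbx5 share an arrangement in the genome. Each starts close to an oppositely oriented gene for an hnRNP A/B splicing factor, Hnrnpa2b1 at 722 bases from Cbx3 and Hnrnpa1 at 545 bases from Cbx5. Hnrnpa2b1 stood at 192, 203 and 204 FPKM in control and at 148, 157 and 147 FPKM in Msx1 libraries (log2 change -0.41, limma adjusted p = 0.000433). For Hnrnpa1 the values were 20.6, 18.4 and 21.2 FPKM in control and 13.9, 13.1 and 13.4 FPKM in Msx1 libraries (-0.54, adjusted p = 0.00024). Both neighbours were lower in all Msx1 libraries, whereas of the HP1 pair only Cbx3 was called, at -0.24 against -0.06 for Cbx5. No test of the differences between the neighbours was made.

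The other genes of the pathway were taken from lists chosen by function, with earlier results of these data known. Of 15 tested genes for further H3K9 methyltransferases and their cofactors, 2 rose, 5 fell and 8 were not called, with a median change of -0.14, or -0.03 at equal totals excluding Msx1. Against 22.0% higher and 32.4% lower over all tested genes, the lower count is near the background. Hells, a remodeller of repressed chromatin, fell from 7.25 ± 0.242 to 2.76 ± 0.317 FPKM (log2 change -1.14, limma adjusted p = 1.08e-05; SD, n = 3 each). Morc2a, which encodes an ATPase, fell from 25.5 ± 1.77 to 18.0 ± 0.496 FPKM (-0.47, adjusted p = 0.000394). Trim28, the corepressor that recruits Setdb1, fell from 73.6 ± 4.60 to 60.7 ± 1.04 FPKM (-0.27, adjusted p = 0.0046). The count of lower genes was 3 without control replicate 2, control replicate 3, Msx1 replicate 1 or Msx1 replicate 3, and that of higher genes was 0 without control replicate 3, Msx1 replicate 1 or Msx1 replicate 2 and 1 without control replicate 1 or Msx1 replicate 3.

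Genes for the enzymes that remove H3K9 methylation were taken next. Of 11 tested demethylase genes 7 rose, 0 fell and 4 were not called, with a median change of 0.25 beside -0.07 over all tested genes, of which 22.0% rose and 32.4% fell. Jmjd1c, of the family that includes the H3K9 demethylases Kdm3a and Kdm3b, read 6.15, 8.58 and 7.58 FPKM in control and 11.6, 12.6 and 11.0 FPKM in Msx1 libraries (log2 change 0.60, SE 0.11, limma adjusted p = 0.00217). Phf2, a PHD finger demethylase, read 16.2, 16.9 and 16.6 FPKM in control and 23.0, 22.8 and 22.7 FPKM with Msx1 (0.44, SE 0.05, adjusted p = 0.000128). Kdm4b, which acts on trimethylated H3K9, rose from 11.0 ± 0.557 to 13.7 ± 0.265 FPKM (0.30, adjusted p = 0.00284; SD, n = 3 each). In each of these 3 genes, named for the smallest adjusted p of the list, every Msx1 library was above every control library. Groups did not overlap, in either direction, for 8 of the 11 genes, against 62.3% of all tested genes. Correcting for length and GC left 5 higher and 1 lower, with a median of 0.10, and over all 18 refits 5 to 9 were higher and 0 or 1 lower.

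**Figure D5:**
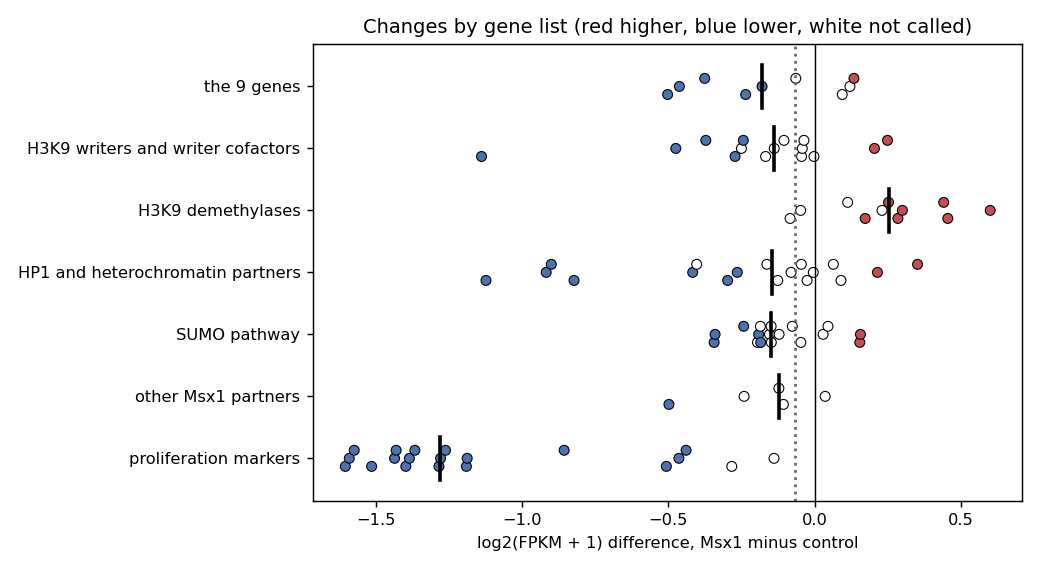
Change of every tested gene of each list on the log2(FPKM + 1) scale, Msx1 minus control, with the list median as a vertical bar, 0 as a solid line and the median of all tested genes (-0.07) as a dotted line. The demethylase median lies at 0.25, those of the other methyltransferase genes and cofactors, the heterochromatin partners and the SUMO pathway between -0.15 and -0.14 with FPKM as deposited, and that of the proliferation markers at -1.28.

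Of 18 tested genes for partners of HP1 and of heterochromatin, 2 rose, 7 fell and 9 were not called, with a median change of -0.15. That is near the 32.4% lower of all tested genes, with 22.0% higher. The list median was -0.04 at equal totals excluding Msx1, -0.07 without control replicate 2 and -0.23 without control replicate 1. The mitotic genes Sgo1, which protects centromeric cohesion, and Incenp, the scaffold of the chromosomal passenger complex, fell by 1.12 and 0.92 on the log2 scale (limma adjusted p = 1.61e-05 and 5.60e-05). Chaf1a, the large subunit of the chromatin assembly factor that binds HP1, fell from 13.8 ± 1.85 to 6.87 ± 0.379 FPKM (-0.90, adjusted p = 0.000113; SD, n = 3 each). The 2 higher genes were 1 without control replicate 3 or Msx1 replicate 1.

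Of 17 SUMO pathway genes, to which the ligase Pias1 belongs, 2 rose, 5 fell and 10 were not called, with a median change of -0.15, and 2 rose and 1 fell, with a median of -0.05, at equal totals excluding Msx1. Neither count exceeds the share over all tested genes, 22.0% higher and 32.4% lower. Sae1, a subunit of the SUMO activating enzyme, fell from 62.6 ± 4.38 to 49.2 ± 1.97 FPKM (log2 change -0.34, limma adjusted p = 0.00258; SD, n = 3 each). Topors, a ligase for ubiquitin and SUMO, was also called lower, its mean being 18.1 ± 1.53 FPKM without and 14.0 ± 0.803 FPKM with Msx1 overexpression (-0.34, limma adjusted p = 0.00535). Counts of lower genes were 3 without control replicate 3, Msx1 replicate 1 or Msx1 replicate 2, and those of higher genes 0 without control replicate 2, control replicate 3, Msx1 replicate 1 or Msx1 replicate 2 and 1 without Msx1 replicate 3.

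Of 10 further proteins described as partners of Msx1, 5 genes were tested, and 0 rose, 1 fell and 4 were not called. Neither count exceeds the share over all tested genes, of which 22.0% rose and 32.4% fell. The one that fell was Ezh2, the methyltransferase of lysine 27 of histone H3, at 14.0, 13.5 and 13.6 FPKM in control and 9.55, 9.19 and 9.53 FPKM in Msx1 libraries (log2 change -0.50, SE 0.05, limma adjusted p = 0.000107). Lhx2 (-0.24, adjusted p = 0.0585) and Trp53 (-0.12, adjusted p = 0.185) were not called. Without Msx1 replicate 1 there were 2 lower, and over all 18 refits 1 to 3.

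Markers of proliferating cells moved in the same direction as Suv39h1, Suv39h2, Setdb1, Hells, Chaf1a and Ezh2, which are named here from the genes called lower. In the same lists 1 of the 9 genes, 2 of the methyltransferase genes and cofactors and 2 of the HP1 partners were called higher. Of 20 such markers 0 rose, 18 fell and 2 were not called, with a median change of -1.28. Of all tested genes 22.0% rose and 32.4% fell. Ccnb2, Bub1 and Ccna2, which drive or guard mitosis, fell by 1.60, 1.44 and 1.43 on the log2 scale (limma adjusted p from 1.07e-06 to 1.57e-06). Their part in the lower levels of these list genes was not tested either. In such bulk libraries fewer cells of a kind and less RNA per cell cannot be told apart.

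For each of the 9 genes, the tested gene with the most similar profile over the 6 libraries was sought as the smallest root mean square difference of mean-centred log2(FPKM + 1) among 11808 candidates. Suv39h1 was closest to Lyplal1 (difference 0.020), Suv39h2 to Taf13 (0.027) and Setdb1 to Psmd1, a proteasome subunit (0.017). Ehmt2 was closest to Dennd2a (0.012) and Ehmt1 to Ube2b (0.018). Among the HP1 genes, Cbx1 was closest to the RNA-binding protein gene Sfpq (0.011), Cbx3 to F8 (0.016) and Cbx5 to Ccdc25 (0.012), and Pias1 was closest to Prps2 (0.025). With this many candidates and only 6 libraries a near match is easily met, and these names are a description.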

How the data were processed

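Total RNA came from a Trizol extraction and was made into NEBNext Ultra libraries, per the labels' protocols. The authors deposited 1 table of FPKM, 1 row per RefSeq transcript and 1 column per library. Trimmomatic, HISAT2, StringTie and GRCm38 (mm10) are named in the submitters' processing notes, without a version or setting. Control columns, headed with a vector and a number, were matched to the control titles by that number.

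Of 38468 transcripts, 38193 took a symbol from RefSeq and 156 from GENCODE, and 119 kept their own identifier. FPKM were summed per symbol to 24809 genes. The test between the groups was limma (version 3.58.1, in R 4.3.3), with its intensity trend, on log2(FPKM + 1) for genes whose mean over the 6 libraries reached 0.5 FPKM. Paralog ratios were tested with exact permutations (SciPy 1.17.1). Scripts were tested on simulated data. Promoters and positions are those of RefSeq for GRCm38.p6. No promoter, peak or methylation measurement was used.

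Depth is unknown: whole reads could not be recovered, since at the best step only 38.1% to 42.8% of the low values were within 0.1 of a multiple, and FPKM allow no count test. Precision rests on the 3 libraries per group. The members and lists were chosen with earlier results of these data known. Named were the 9 members, Msx1, up to 3 genes with the smallest adjusted p from each list and the closest profile of each member; neighbours were named by position. A gene that this rule names is not reported here. Alternatives covered pseudocounts, filters, scalings, a length and GC correction (values for 12310 of 12371 genes), sample weights, no intensity trend, the most abundant transcript, a replicate block and leaving out each library.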

Additional observations from a re-analysis of the deposited data

How the results depend on the processing

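Suv39h1 and Setdb1 were called lower under each of the 18 alternatives, and Suv39h2 under 16 of 17 (it fell below the filter of 2 FPKM), the exception being the most abundant transcript (-0.38). Members called higher were 2 after median-of-ratios scaling, with equal totals without Msx1 and with sample weights, and 0 without an intensity trend, with the most abundant transcript and with the replicate block. Members called lower were 3 after both scalings and after the length and GC correction. Leaving out 1 library at a time gave 0 to 1 higher and 3 to 5 lower members and 5586 to 7095 genes called, where all 6 libraries gave 6732.

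After the length and GC correction the log2 change was -0.0497 for Ehmt2, 0.0515 for Cbx1 and 0.0551 for Cbx3, each reversed, and 0.21 for Pias1, newly called. With the most abundant transcript Ehmt2 was at -0.00241 and Cbx5 at -0.33, newly called. Median-of-ratios scaling gave 0.19 for Ehmt1, newly called, and -0.11 and -0.16 for Cbx1 and Cbx3, no longer called. Equal totals without Msx1 gave 0.22 for Ehmt1, newly called, and -0.0707 and -0.12 for Cbx1 and Cbx3, no longer called, and quantile normalization -0.19 for Cbx3. Sample weights called Ehmt1 (0.14), with control replicate 3 weighted 7.18 and control replicates 1 and 2 weighted 0.239 and 0.439. The cause was not tested. With 1 library left out, the log2 change lay between 0.12 and 0.16 for Ehmt2, between -0.20 and -0.16 for Cbx1 and between -0.29 and -0.17 for Cbx3.

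Deviations from the group mean correlated by 0.06, 0.23 and 0.04 between same-numbered libraries and by -0.20 to 0.13 between differently numbered ones. These few values cannot settle whether the numbers pair the libraries. With the replicate number as a block 6747 genes were called, and Ehmt2 was at 0.13 without passing (adjusted p = 0.0655), as without an intensity trend (0.13, adjusted p = 0.0652). The log2 ratio of Suv39h1 to Suv39h2 differed by -0.0400 with FPKM + 1, Cbx1 to Cbx5 by 0.15 and Cbx3 to Cbx5 by 0.10 with the most abundant transcript, and Ehmt1 to Ehmt2 by -0.0614 to 0.0598 with 1 library left out. SUMO pathway genes called lower numbered 1 to 9 and called higher 0 to 3 over the 18 alternatives, the other methyltransferase genes and cofactors 3 to 8 and 0 to 2, HP1 partners called higher 1 to 3, and other Msx1 partners called lower 1 to 3.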
